A study of Mus musculus with 2 samples.

Results

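Collagens are the main structural proteins of the extracellular matrix, and the genes described here encode their chains. Members were all mouse genes whose symbol has the form of a collagen chain name (Col, a type number, the letter a and a chain number). There were 44 such genes among the 55536 mouse gene rows. They comprise 11 fibrillar chains, 6 basement membrane chains (type IV), 6 beaded filament chains (type VI) and 21 others. The others are 9 chains of the FACIT kind, which decorate fibrils, 3 short-chain network collagens, 2 multiplexins, 1 anchoring fibril chain, 4 transmembrane collagens, and types XXVI and XXVIII. RNA came from the whole heart of 2 adult male B6CASTF1/J mice aged 8 to 10 months, which the labels call animals 2 and 4 and which are replicates 1 and 2 below. Such mice are F1 hybrids between the C57BL/6J and CAST strains. The labels name no treatment and no transgene, and both animals carry the same donor entry. Each library was made from 300 ng of total RNA with ribosomal RNA reduced, ERCC spike-ins added and a kit that keeps strand.

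Collagen chains wind in threes into a triple helix, which requires glycine as the first residue of each triplet of amino acids. Fibrillar collagens, made in the heart mainly by fibroblasts, are trimmed outside the cell and form the cables that carry load. Type IV collagen forms the sheet that surrounds each heart muscle cell and underlies the endothelium of every vessel, and type VI forms beaded filaments close to that sheet.

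Mouse genes received 42.05 M expected counts in replicate 1 and 39.98 M in replicate 2, or 99.8% of each library. A count of 0 allows up to 3 counts in a library of this size. Over 17075 genes the chi-square between the libraries was 15.4 per degree of freedom, so they differed by more than sampling noise. The 6 heart muscle markers summed to 25472 TPM in replicate 1 and 27840 TPM in replicate 2, and all 6 were above 1 TPM in both. Lung epithelium markers summed to 35.3 TPM in replicate 1 and to 0 TPM in replicate 2. That sum came almost wholly from Scgb1a1 (15.59 TPM) and Bpifa1 (19.56 TPM), secreted proteins of the airway, while the alveolar marker Sftpc was at 0 in both. These are whole-heart libraries, in which fewer cells of a type and less RNA per cell cannot be told apart.

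The glycine repeat is visible in the coding sequence, where a glycine codon (GGN) opens every triplet of a helical stretch. Its layout differs between fibrillar, type IV and type VI chains, whose levels are compared below. Shown are 40 codons of the highest fibrillar, type IV and type VI member, with the 15 codons that end the longest unbroken run of such triplets and the 25 codons after it. Capitals mark glycine codons that belong to a run of at least 3 triplets, and each sequence starts in frame.
Col3a1: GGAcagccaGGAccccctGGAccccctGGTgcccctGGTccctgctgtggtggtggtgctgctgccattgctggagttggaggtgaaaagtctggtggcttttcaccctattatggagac
Col4a1: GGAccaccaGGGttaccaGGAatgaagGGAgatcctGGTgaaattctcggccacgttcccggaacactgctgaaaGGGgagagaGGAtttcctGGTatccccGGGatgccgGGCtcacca
Col6a2: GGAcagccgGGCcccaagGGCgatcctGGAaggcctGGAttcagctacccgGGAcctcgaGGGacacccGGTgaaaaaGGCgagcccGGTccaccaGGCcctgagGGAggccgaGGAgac
In Col3a1 (codons 1181 to 1220 of Col3a1-201) a run of 344 triplets ends at codon 1195 and no run follows within the stretch. In Col4a1 (codons 148 to 187 of Col4a1-201) a run of 40 triplets ends and another begins after 10 codons. The break in Col6a2 (codons 517 to 556 of Col6a2-201) spans 2 codons.

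Over the classes, the longest run had a median of 338 triplets in the 11 fibrillar chains (216 to 344). It had a median of 43.5 in the 6 type IV chains (39 to 66), 45 in the 6 type VI chains (37 to 87) and 30 in both multiplexins. Type IV chains were broken into 23 to 27 runs and fibrillar chains into 2 to 5. Runs covered 74.9 to 78.9% of the codons of type IV chains but 10.0 to 31.9% of those of type VI chains, whose long ends are built from von Willebrand factor A domains. The 21 other chains overlapped these ranges, with a longest run of 23 to 113 triplets, 2 to 23 runs and 8.12 to 85.6% of codons in runs. These layouts are a property of the annotation, not of the libraries.

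At least 1 TPM in both libraries was reached by 19 of the 44 genes (43.2%), beside 10768 of 22028 protein-coding genes (48.9%). By class these were 6 of 11 fibrillar, 4 of 6 type IV, 4 of 6 type VI and 5 of 21 other chains. All 44 together held a summed level of 294.69 TPM in replicate 1 and 278.36 TPM in replicate 2. That is 0.0288% of the TPM of all mouse genes and 0.0791 ± 0.00447% (SD, n = 2) of that of protein-coding genes of the nuclear genome. In expected counts they held 51813 and 47814, or 0.121% of mouse counts. A few genes carried most of it, since the leading 3 held 54.2 ± 1.81% of the collagen TPM, the leading 6 held 74.6 ± 0.844% and the leading 10 held 89.5 ± 0.743%.

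**Figure D1:**
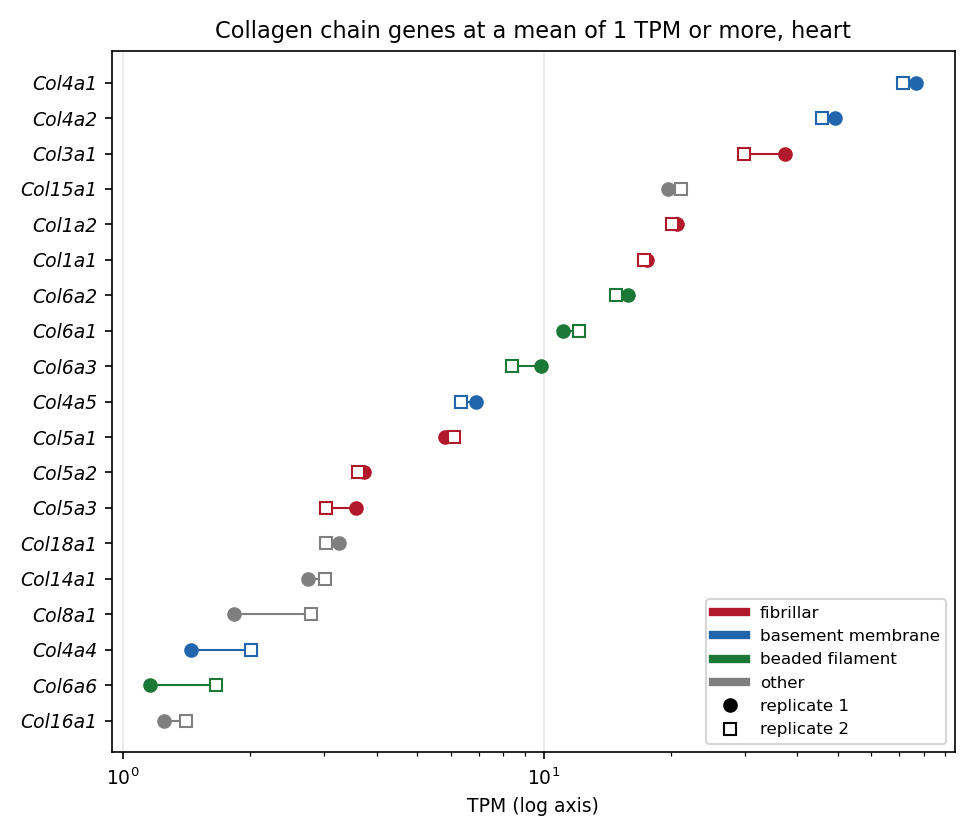
Level of the 19 collagen chain genes with a mean of 1 TPM or more, on a log axis in TPM, with replicate 1 as a filled circle and replicate 2 as an open square, coloured by class. Col4a1 and Col4a2 lie highest in both libraries, and the levels span from 1.33 TPM (Col16a1, mean) to 74.2 TPM (Col4a1, mean).

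Type IV collagen led. Col4a1 (ENSMUSG00000031502.11, mm10 chromosome 8, 11198423 to 11312826, minus strand), the main type IV chain of all basement membranes, was at 76.86 TPM in replicate 1 and 71.55 TPM in replicate 2. Its mean level of 74.2 ± 3.75 TPM was at percentile 93.3 of the 10768 expressed protein-coding genes. Its partner Col4a2 (ENSMUSG00000031503.13, chromosome 8, 11312805 to 11449287, plus strand) was at 49.12 and 45.83 TPM, with a mean of 47.5 ± 2.33 TPM at percentile 89.8. The libraries of Col4a1 and Col4a2 did not overlap, nor did those of Col4a2 and the next gene, Col3a1. Of the chains that form more specialised networks, known from the kidney glomerulus and from Alport syndrome, Col4a5 was at 6.90 and 6.34 TPM. Col4a4 was at 1.45 and 2.01 TPM. Below 1 TPM stood Col4a6 (0.68 and 0.50 TPM) and Col4a3 (0.38 and 0.55 TPM).

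Among the fibrillar chains Col3a1 was highest. Col3a1, the only chain of type III collagen, which makes fine, compliant fibrils (ENSMUSG00000026043.18, chromosome 1, 45311538 to 45349706, plus strand), was at 37.52 TPM in replicate 1 and 29.95 TPM in replicate 2. The chains of type I collagen, the main protein of stiff fibrils, were lower. Col1a2 (ENSMUSG00000029661.16, chromosome 6, 4504814 to 4541544, plus strand) was at 20.70 and 20.14 TPM. Col1a1 (ENSMUSG00000001506.10, chromosome 11, 94936224 to 94953042, plus strand) was at 17.57 and 17.28 TPM, below both libraries of Col1a2, and at percentile 71.7 of expressed genes. Type V chains, which start fibrils and limit their width, followed with Col5a1 at 5.82 and 6.12 TPM, Col5a2 at 3.73 and 3.62 TPM and Col5a3 at 3.57 and 3.03 TPM. The other 5 fibrillar genes were below 1 TPM, with at most 0.35 TPM on average (Col11a2) and 149 summed counts (Col27a1). Col2a1, the cartilage fibril chain, had 2 counts in replicate 1 and 0 in replicate 2.

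The 3 chains that make up the usual type VI collagen had similar levels. Col6a2 was at 15.83 TPM in replicate 1 and 14.80 TPM in replicate 2, Col6a1 at 11.09 and 12.14 TPM, and Col6a3, the longest of them, at 9.86 and 8.38 TPM. The neighbours in this order did not overlap between libraries. Col6a6, which can take the place of Col6a3, was at 1.16 and 1.66 TPM. Col6a5 had a mean of 0.045 TPM, and Col6a4 had no count in either library.

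The multiplexin Col15a1, a collagen of basement membranes next to muscle and small vessels (ENSMUSG00000028339.17, chromosome 4, 47208161 to 47313167, plus strand), was at 19.77 TPM in replicate 1 and 21.19 TPM in replicate 2. Its libraries overlapped those of Col1a2. Col18a1, whose C-terminal fragment is endostatin, was at 3.25 and 3.04 TPM. The FACIT genes above 1 TPM were Col14a1 (2.75 and 3.02 TPM) and Col16a1 (1.25 and 1.41 TPM). Col8a1, a short-chain collagen of vessel walls, was at 1.83 and 2.80 TPM, and its partner Col8a2 was at 0.15 TPM on average. The remaining 16 other chains ranged from 0 to 0.72 TPM on average, with Col23a1, a transmembrane collagen, at the top (0.77 and 0.67 TPM). The FACIT gene Col12a1 was at 0.50 and 0.16 TPM, from 79 and 57 counts.

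Near the chosen level of 1 TPM, Col16a1 lay just inside and Col23a1 just outside. Of the 18 neighbouring pairs in the order of the 19 levels, 12 did not overlap between libraries and 6 did. The latter were Col15a1 with Col1a2, Col5a3 with Col18a1, Col14a1 with Col8a1, Col8a1 with Col4a4, Col4a4 with Col6a6, and Col6a6 with Col16a1. The second quantification changed the rank of 4 of the 19 genes and counts per kilobase of the longest coding transcript changed that of 7. The 3 leading genes had the same ranks in all 3 measures.

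Of the chains of types II, IX, X and XI, known from hyaline cartilage, most had few counts. The exception was Col11a2, with 41 and 26 counts (0.46 and 0.24 TPM). Besides Col2a1, counts were 0 and 1 in the 2 libraries for Col9a1, 1 and 1 for Col9a2, 4 and 2 for Col9a3, 6 and 3 for Col11a1, and 0 in both for Col10a1, the hypertrophic cartilage chain. Of the fibrillar genes below 1 TPM outside these types, Col24a1 had 0 and 1 counts and Col27a1 had 93 and 56. Of the 10 chondrocyte markers, 3 were at 0 TPM in both libraries (Matn1, Matn3 and Snorc), and the aggrecan gene Acan was at 0.03 TPM in each. Cytl1 (7.37 and 6.90 TPM), Comp (2.14 and 2.16 TPM) and Cnmd (1.27 and 1.29 TPM) were above 1 TPM. Col7a1, the anchoring fibril chain of skin, had 9 and 3 counts, and Col17a1, of epidermal cell junctions, had 1 and 3. In all, 5 of the 44 genes had no count in at least 1 library and 2 of them had none in either.

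Basement membrane chains held the largest share of the collagen TPM. Type IV accounted for 45.9% in replicate 1 and 45.5% in replicate 2, and the 11 fibrillar genes for 30.5% and 29.0%. Type VI held 12.9% and 13.3%, and the other 21 genes 10.7% and 12.2%, of which the multiplexins made up 8.26 ± 0.631 percentage points. The type IV share of 45.7 ± 0.281% (SD, n = 2) was above the fibrillar share of 29.7 ± 1.07% in both libraries. The FACIT genes held 1.76 ± 0.0636%, the short-chain network genes 0.866 ± 0.269% and the transmembrane genes 0.367 ± 0.0296%. In the second quantification type IV held 48.4% and fibrillar genes 29.1%. Measured by expected counts, which favour long mRNAs, the shares were 47.1% and 31.3%, and per kilobase of the longest coding transcript they were 43.6% and 32.5%. Type IV was above fibrillar in both libraries on all 4 measures. With the multiplexins counted as basement membrane collagens, that class held 54.0 ± 0.350%.

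**Figure D2:**
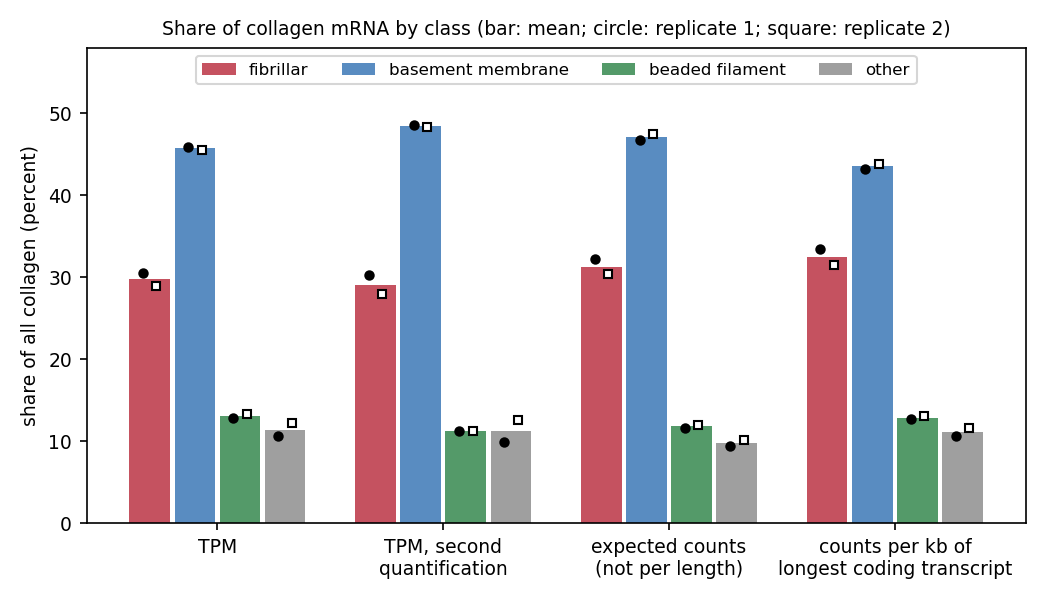
Share of all collagen (percent) held by each class on 4 measures; bars are means of 2 libraries, circles replicate 1 and squares replicate 2. The basement membrane bar is highest on each measure, between 43.6% and 48.4%, and the fibrillar bar lies between 29.1% and 32.5%.

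The same markers give the cell types that the whole heart could hold. Endothelial markers summed to 525 TPM in replicate 1 and 509 TPM in replicate 2, fibroblast markers to 369 and 407 TPM, and mural markers to 267 and 268 TPM. Few genes carried these sums. Fabp4 gave 190.16 and 182.56 TPM of the endothelial sum and Gsn 203.30 and 225.02 TPM of the fibroblast sum. Of the mural sum Rgs5 gave 107.11 and 105.39 TPM and Abcc9 82.39 and 93.27 TPM. Whether these genes mark only 1 cell type in the heart was not tested. All 8 endothelial and all 8 mural genes and 7 of 8 fibroblast genes were above 1 TPM in both libraries. Postn, a matricellular gene of activated fibroblasts, was at 5.09 and 3.48 TPM, and Cthrc1, another such marker, at 0.07 and 0.06 TPM. Schwann cell markers summed to 12.1 and 12.2 TPM and fast skeletal muscle markers to 20.2 and 20.2 TPM. The part of each cell type in the collagen shares was not tested.

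Chains that assemble into the same molecule, and chains of related types, were compared as the ratio of their TPM within a library. Of 21 such pairs, 13 had both chains at 1 TPM or more. In type I collagen, whose usual molecule holds more of the Col1a1 chain than of the Col1a2 chain, the Col1a1 to Col1a2 ratio of levels was 0.849 in replicate 1 and 0.858 in replicate 2. The mean on the log2 scale was -0.23 ± 0.0110 (SD, n = 2). From expected counts the ratio was 1.02, so its direction depends on the correction for length. In type IV collagen, whose common molecule also holds more of the first chain, the Col4a1 to Col4a2 ratio of TPM was 1.56 in each library, or 0.64 ± 0.00231 on the log2 scale. It was 2.09 in the second quantification, 1.21 as counts and 1.18 as counts per kilobase. The direction of the ratio was the same on each measure, while its size moved by more than the spread between animals. The Col4a1 level included 19.76 and 20.04 TPM of Col4a1-203, of 545 nucleotides, from 305.92 and 292.74 expected counts. That of Col4a2 included 5.01 TPM of Col4a2-203, of 764 nucleotides, in replicate 1 and 0 in replicate 2. The full-length Col4a1-201 was at 52.34 and 50.69 TPM and Col4a2-201 at 44.11 and 45.83 TPM.

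The ratio of Col3a1 to Col1a1 was 2.14 in replicate 1 and 1.73 in replicate 2, with a log2 mean of 0.94 ± 0.213. It was 2.71 in the second quantification and 1.78 as counts per kilobase. Col5a1 stood at 1.62 times Col5a2 (log2 0.70 ± 0.0818) and Col5a3 at 0.551 times Col5a1 (log2 -0.86 ± 0.219). Set against type I, the Col5a1 to Col1a1 ratio was 0.343 (log2 -1.55 ± 0.0683). Col3a1 and Col5a2, which lie tail to tail on chromosome 1, differed 9.12-fold (log2 3.19 ± 0.199), or 13.6-fold in the second quantification and 9.42-fold per kilobase.

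In type VI collagen, which is built from equal numbers of its main chains, the Col6a1 to Col6a2 ratio was 0.758 (log2 -0.40 ± 0.161). Col6a3 to Col6a1 was 0.889 in replicate 1 and 0.690 in replicate 2 (log2 -0.35 ± 0.258), and Col6a3 to Col6a2 was 0.594 (log2 -0.75 ± 0.0973). As counts the Col6a3 to Col6a1 ratio was 1.19 and per kilobase it was 0.482, and for Col6a3 to Col6a2 these values were 0.918 and 0.423. Col6a3 was the lowest of the 3 chains in TPM and per kilobase but not in counts. The longest coding transcript of Col6a3, Col6a3-201, has 10106 nucleotides, against 4100 for Col6a1. It had no count in either library of the first quantification, and Col6a3-202, of 9001 nucleotides, held 94.1% of the gene's counts. For Col6a2 the longest coding transcript has 4653 nucleotides and held 8.16% of the TPM, while the leading one has 3949. The values per kilobase of these genes thus divide by transcripts that held little or none of the signal. Col4a1 stood 11.2-fold above Col4a5 (log2 3.49 ± 0.0133), which was 16.8-fold in the second quantification and 8.41-fold per kilobase. Across types, Col4a1 stood 2.21-fold above Col3a1 (log2 1.15 ± 0.157), or 2.27-fold and 1.73-fold on those measures. Col15a1 stood 6.51-fold above Col18a1 (log2 2.70 ± 0.139), or 8.39-fold and 6.34-fold.

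**Figure D3:**
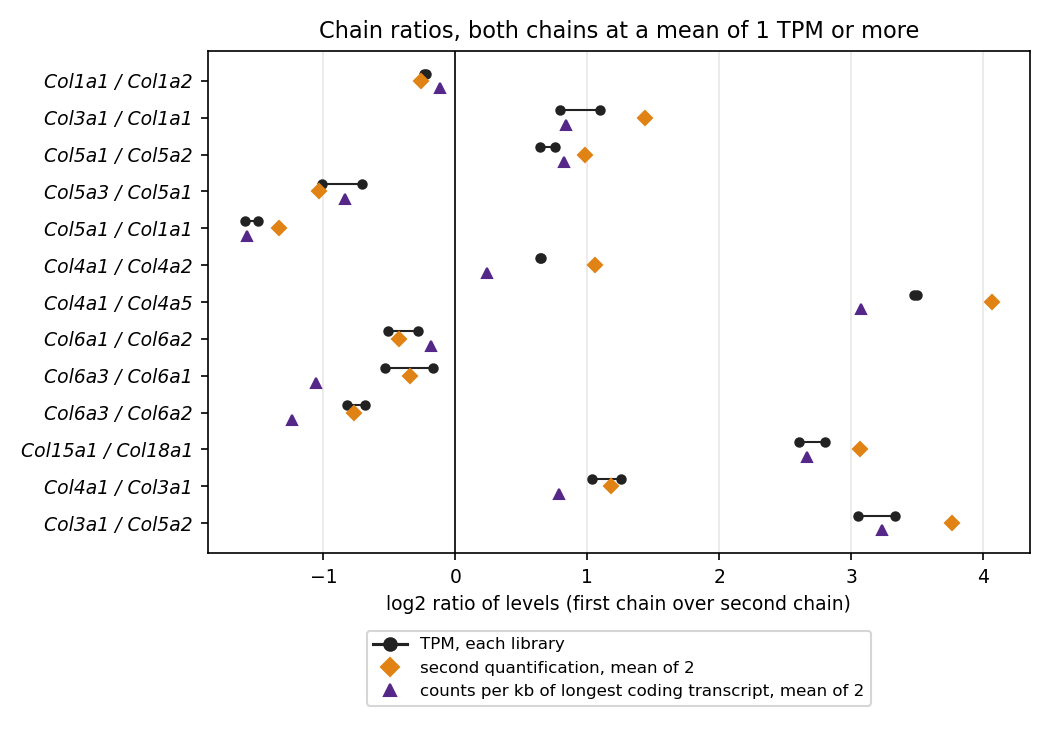
Log2 ratio of the levels of 2 chains, first over second, for the 13 pairs with both chains at 1 TPM or more; black points are the TPM of each library, diamonds the second quantification and triangles counts per kilobase, both as means of 2. For no pair do the 3 measures lie on different sides of 0, and the Col4a1 to Col4a2 ratio ranges from 1.18-fold to 2.09-fold.

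The 8 pairs with a chain below 1 TPM included partners that differed widely in level. Col4a5 was 11.3-fold above Col4a6 (log2 3.50 ± 0.227), and Col8a1 was 15.1-fold above Col8a2 (log2 3.92 ± 0.570). Col4a3 was at 0.268 times Col4a4 (log2 -1.90 ± 0.0440), from 106 and 136 counts of Col4a3. Col12a1 was at 0.182 times its FACIT relative Col14a1 in replicate 1 and at 0.0530 times in replicate 2 (log2 -3.35 ± 1.26). The pairs of Col9a1, Col9a2, Col9a3 and Col11a1 rested on 0 to 6 counts of at least 1 chain per library, too few for their ratios to be read.

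Type IV genes lie in head-to-head pairs, in which both genes start from the same interval and run apart. The 5′ ends of Col4a1 and Col4a2 overlap in the annotation, and their mean levels were 74.2 and 47.5 TPM. Col4a6 and Col4a5 start 1309 bases apart on the X chromosome, and were at 0.59 and 6.62 TPM. Col4a4 and Col4a3 start 72 bases apart on chromosome 1, and were at 1.73 and 0.465 TPM. The whole interval between the annotated starts of that last pair is 71 bases long, holds 69.0% G and C, and is shown because both genes' levels are set beside it. It lies at mm10 chr1:82586850-82586920 and is written on the plus strand, with Col4a4 to its left and Col4a3 to its right.
Col4a4 to Col4a3 interval: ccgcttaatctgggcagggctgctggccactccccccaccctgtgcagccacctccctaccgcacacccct
The genes of a pair differed in level by 1.56-fold to 11.3-fold in TPM. Type VI genes are also clustered but on the same strand. Col6a2 and Col6a1 on chromosome 10 were at 15.3 and 11.6 TPM, while Col6a6, Col6a5 and Col6a4, which follow each other on chromosome 9, were at 1.41, 0.045 and 0 TPM.

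Each of the 19 expressed genes has at least 2 annotated transcripts, and for 19 of 19 the transcript with the highest share averaged over the libraries was the same in both quantifications. Within single libraries this held for 17 of 19. In the second quantification Col14a1-203 (49.4%) was above Col14a1-201 (31.5%) in replicate 1, and Col16a1-207 (29.0%) above Col16a1-209 (26.5%) in replicate 2. In 17 genes the leading transcript held over 50% of the gene's TPM in both libraries of the first quantification. Col18a1 has start sites far apart, which give proteins with different N-terminal ends. The transcript from the upstream start at chr10 position 77166548, Col18a1-202, held 73.02% of the gene's TPM in replicate 1 and 69.58% in replicate 2. The second quantification gave it 73.7 ± 0.594%. Col18a1-201 and Col18a1-203, which start more than 50 kilobases inside the gene, held 12.4% and 11.8% on average. The upstream start was the leading one in both libraries and in both quantifications. The 100 bases before that start (mm10 chr10:77166549-77166648, minus strand) are shown because most of the gene's RNA was assigned to it. They overlap no annotated exon of Col18a1 and hold 69.0% G and C. Exons of other genes were not examined.
Col18a1-202 upstream: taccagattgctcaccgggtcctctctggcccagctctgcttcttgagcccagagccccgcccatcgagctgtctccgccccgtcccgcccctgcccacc

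In Col1a1, Col1a2, Col3a1, Col4a2, Col5a1, Col5a3, Col6a1, Col6a2, Col6a6 and Col8a1 the leading transcript held at least 90.3% of the TPM on average. In the second quantification those of Col3a1, Col5a1 and Col4a2 held 64.3%, 83.0% and 87.6%. Col14a1-201 held 46.88% and 70.05% and Col16a1-209, annotated as a target of nonsense-mediated decay, 55.95% and 38.30%. For Col16a1 the TPM was higher in replicate 2 (1.25 and 1.41) while the counts were lower there (166 and 117).

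Because TPM is per length, annotated transcripts much shorter than the leading one hold a larger share of a gene's TPM than of its counts. The size of these shares differed between genes. Gene levels without the short transcripts were not computed. Transcripts under 1000 nucleotides held 28.0% of the TPM of Col4a1 but 2.69% of its expected counts, and 46.4% of its TPM in the second quantification. In Col3a1 they held 8.31% of TPM, 1.06% of counts and 35.1% in the second quantification, and in Col6a3 32.1%, 2.71% and 33.7%. For Col15a1 the shares were 4.51%, 0.279% and 31.8%. In Col1a1 they were under 1% on every measure. The full-length Col4a1-201, of 6615 nucleotides, held 69.5 ± 1.94% of the gene's TPM and 96.7% of its counts. In the second quantification the mean gene levels were 93.7 TPM for Col4a1, 41.6 TPM for Col3a1, 8.29 TPM for Col6a3 and 22.7 TPM for Col15a1, beside 74.2, 33.7, 9.12 and 20.5 TPM in the first.

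**Figure D4:**
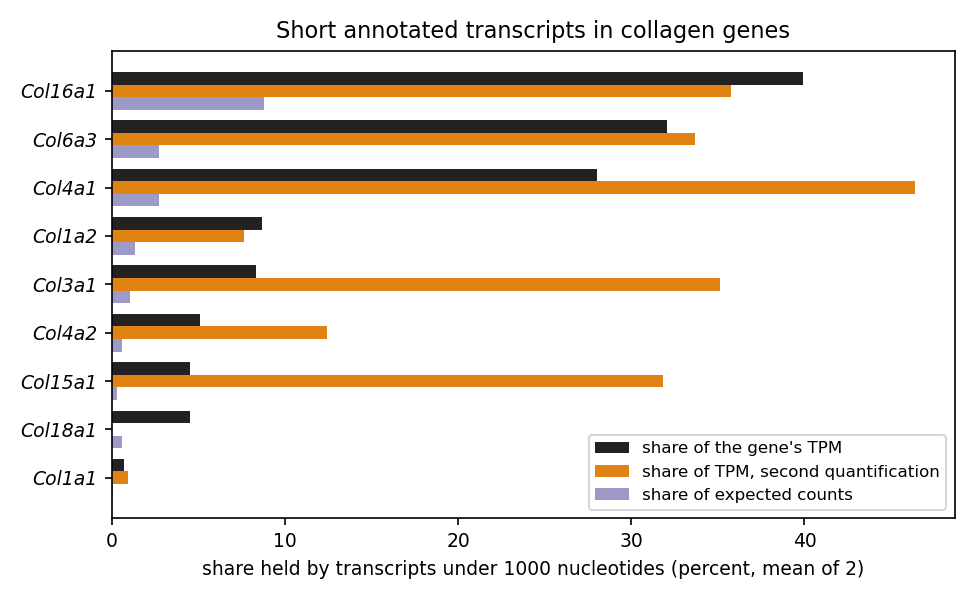
Percent of a gene's TPM, of its TPM in the second quantification and of its expected counts that lies on annotated transcripts under 1000 nucleotides, as means of 2 libraries, for the genes with any such share. The share of counts is below 10% in each gene shown, while the share of TPM reaches 39.9% (Col16a1) and that in the second quantification 46.4% (Col4a1).

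No collagen chain gene differed by the 2-fold rule between the animals: 0 of 22 tested, beside 1.08% of all 10960 genes tested (118 genes). At 1.5-fold it was also 0 of 22, beside 3.53% of all genes. No p-value exists for these ratios. By a rule chosen after the values were seen, an interval that excludes 1 at any fold, 6 of 22 differed, beside 18.1% of all genes. Higher in replicate 2 were 3 of 22 (9.01% of all genes) and lower there 3 of 22 (9.11% of all genes). Lower in replicate 2 were Col3a1, with 6340 and 5141 counts and a scaled ratio of 0.841 (exact counting interval 0.791 to 0.895), and Col4a1, with 12330 and 11154 counts and a ratio of 0.939 (0.899 to 0.980). Col5a3 was also lower there, with 738 and 590 counts and a ratio of 0.830 (0.690 to 0.996). Higher in replicate 2 were Col8a1 (318 and 449 counts, ratio 1.47, 1.15 to 1.87), Col6a6 (341 and 466 counts, ratio 1.42, 1.12 to 1.80) and Col4a4 (345 and 433 counts, ratio 1.30, 1.03 to 1.66). Its neighbour Col4a3 had a ratio of 1.33 with an interval that includes 1 (0.864 to 2.07). The upper 3 were all below 3 TPM on average. The type I genes were close between animals, with ratios of 0.967 (0.893 to 1.05) for Col1a1 and 0.942 (0.869 to 1.02) for Col1a2.

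**Figure D5:**
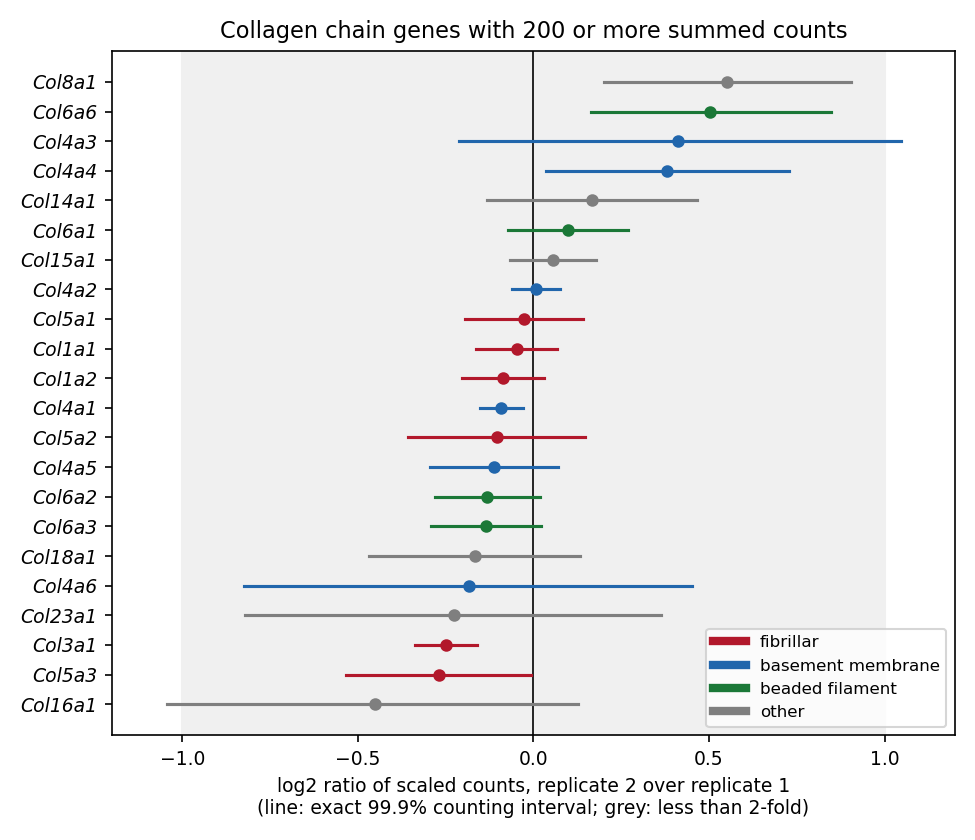
Log2 ratio of scaled counts, replicate 2 over replicate 1, for the 22 genes with 200 or more summed counts, with the exact counting interval as a line and the range below 2-fold in grey. All points lie inside the grey range, the highest at 0.55 (Col8a1) and the lowest at -0.45 (Col16a1).

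Among the 25 members whose counts summed to at least 50, the median log2 ratio of replicate 2 to replicate 1 was -0.10, beside 0.01 over protein-coding genes. Of these, 17 were higher in replicate 1 and 8 in replicate 2. The median absolute log2 ratio was 0.167, beside 0.122 over protein-coding genes. The 8 fibrillar genes with enough counts were all higher in replicate 1, by log2 ratios of -0.03 to -0.68 with a median of -0.18, beside 47.5% of all genes higher in replicate 1. This held under each of 4 scalings, and in TPM for 7 of the 8, with Col5a1 the exception (5.82 and 6.12 TPM). A scaling shifts all genes alike, so the 4 are not separate checks. The share of all genes higher in replicate 1 ranged from 43.1% with total counts to 59.2% with ERCC scaling. For 2 of the 8, Col3a1 and Col5a3, the interval excluded 1. The lowest log2 ratios were those of Col27a1 (-0.68, 149 summed counts) and Col11a2 (-0.60, 67 summed counts), whose intervals included 1. Both genes had too few counts to be tested by the 2-fold rule. Among the fibrillar genes that were tested, the lowest log2 ratio was -0.27 (Col5a3). The fibrillar genes were looked at on their own only after the data were seen. Type IV genes were split 3 and 3, and type VI genes 2 and 2.

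Beside this lean, the 8 fibroblast markers did not move in 1 direction: of the 7 with enough counts, 4 were higher in replicate 2 and 3 in replicate 1. Epicardial and mesothelial markers summed to 25.4 TPM in replicate 1 and 14.5 TPM in replicate 2, and all 7 were higher in replicate 1. Of the 5 tested, 2 passed the 2-fold rule (Wt1 and Aldh1a2). Over all 10960 genes tested, 0.858% passed it as higher in replicate 1 and 0.219% as higher in replicate 2. Adipocyte markers summed to 10.7 and 2.80 TPM. Macrophage markers summed to 125 and 66.2 TPM, of which Lyz2 gave 88.19 and 29.24 TPM, and the other 5 summed to 37.0 TPM in each library. Of the 6 macrophage markers, 4 were higher in replicate 1 and 2 in replicate 2 (C1qa and C1qb). Of the 5 macrophage markers tested, Lyz2 and Adgre1 (ratio 0.391, 0.293 to 0.516) passed the 2-fold rule. The lung markers above were also found in replicate 1 only. All 6 heart muscle markers were higher in replicate 2, with a median log2 ratio of 0.08. The part of these cell types in the collagen ratios was not tested.

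The enzymes and chaperones that collagen chains need were broadly present. Of 19 genes for modification and folding in the endoplasmic reticulum, 16 were at 1 TPM or more in both libraries, beside 48.9% of protein-coding genes. By the 2-fold rule 0 of the 18 tested differed, beside 1.08% of all genes tested. With so few genes tested, 0 is near that share. Serpinh1, the collagen chaperone HSP47, was at 87.68 TPM in replicate 1 and 64.48 TPM in replicate 2, with a scaled ratio of 0.716 (0.670 to 0.765). P4hb, the shared subunit of prolyl 4-hydroxylase, was at 75.63 and 76.43 TPM. Of its catalytic subunits, P4ha2 was at 24.75 and 23.94 TPM, and P4ha1 at 20.66 and 11.54 TPM with a ratio of 0.563 (0.497 to 0.636), while P4ha3 was below 1 TPM. The cyclophilin Ppib (37.56 and 37.00 TPM) and its partner Crtap (11.76 and 11.49 TPM) belong to the prolyl 3-hydroxylation complex. The lysyl hydroxylases Plod1 (23.30 and 20.02 TPM) and Plod3 (12.39 and 10.77 TPM), and the galactosyltransferase Colgalt1 (14.30 and 14.08 TPM), modify lysine residues. Of the modification and folding genes tested, P4ha1 and Serpinh1 had the lowest ratios of replicate 2 to replicate 1. In the processing and crosslinking list Loxl2 (6.19 and 3.52 TPM) had a ratio of 0.603 (0.503 to 0.720). Of the 13 genes of that list with 50 or more counts, 8 were higher in replicate 1 and 5 in replicate 2.

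All 6 genes for export of procollagen from the endoplasmic reticulum were above 1 TPM, beside 48.9% of protein-coding genes. By the 2-fold rule 0 of 6 differed, beside 1.08% of all genes, and 6 genes are too few to fall below that share. Mia3 (TANGO1), which loads procollagen into carriers, was at 39.93 and 45.66 TPM, its relative Mia2 at 32.53 and 42.39 TPM, and the coat proteins Sec23a and Sec24d at 16.67 and 16.92 TPM and at 11.77 and 10.50 TPM. Of 14 genes for processing and crosslinking, 7 were above 1 TPM in both libraries, near the 48.9% of protein-coding genes. Pcolce, which enhances removal of the C-propeptide, was at 16.03 and 14.91 TPM. Pxdn, the peroxidase that crosslinks type IV collagen, was at 9.99 and 13.06 TPM. Adamts3, an N-propeptide protease, was the 1 gene of 8 tested that passed the 2-fold rule, beside 1.08% of all genes, at 0.88 and 1.45 TPM. Its counts were 75 and 146, with a ratio of 2.02 (1.27 to 3.30). It did not pass with ERCC scaling (1.95) or in the second quantification (1.82). Of the receptor genes 5 of 10 were above 1 TPM in both libraries, near the 48.9% of protein-coding genes. By the 2-fold rule 0 of 5 tested differed, beside 1.08% of all genes. The integrin chains Itgb1 (114.89 and 121.91 TPM) and Itga1 (11.62 and 13.59 TPM) together form a collagen receptor, and Itga2, Itga10 and Itga11 were each below 1 TPM.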

How the data were processed

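Per the file headers, the deposited gene and transcript tables have the layout of RSEM and hold expected counts, TPM (per length, with a fixed sum per library), FPKM and transcript shares within a gene in percent. The authors also deposited a transcript table with estimated counts and TPM in the layout of kallisto, called the second quantification. Per the labels the assembly was mm10, and the tables' identifiers match GENCODE M21. No label or header names an aligner or a tool version. In the deposited tables of RSEM layout, 100 nucleotides were subtracted from each transcript to give its effective length. The medians in the second quantification were 249 and 248, so short transcripts weigh differently in the 2 sets of TPM.

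The members and lists were chosen with earlier results of these data known. Expected counts were rounded, scaled by TMM (edgeR 4.0.16), and compared as the ratio of replicate 2 to replicate 1 with an exact Clopper-Pearson 99.9% interval. A gene was counted as differing at 200 or more summed counts, a ratio of at least 2-fold and an interval that excluded 1. Intervals cover counting error only, since with 1 library per animal nothing measures error within an animal. The tables hold no molecular identifiers to tell copies of 1 molecule apart. With 1 group of 2 libraries no p-value can be given. Median ratios used genes with 50 or more summed counts. Genes at a mean of 1 TPM or more, chain pairs with both chains at that level, pathway genes at a mean of 10 TPM or more and every differing gene are named. A few genes named below those levels were picked after their values were seen. The pathway lists were modification and folding, export, processing and crosslinking, and receptors. Marker lists covered fibroblasts, mural, endothelial, epicardial and mesothelial cells, chondrocytes, Schwann cells, adipocytes, macrophages, lung epithelium, heart muscle and skeletal muscle.

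Coding sequences were read from GENCODE M21, and upstream sequences from mm10. Alternatives were the second quantification, expected counts, counts per kilobase, other thresholds and pseudocounts, DESeq2 1.42.0 size factors, ERCC spike-in and total-count scaling, and each library alone. Work was done in Python 3.11.15 (pandas 2.3.3, numpy 2.4.6, scipy 1.17.1) and R 4.3.3, and the ratio rule was tested on simulated data.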

Additional observations from a re-analysis of the deposited data

How the results depend on the processing

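No paired analysis was possible because the series has 1 group. The number of genes at 1 TPM or more, the count of pairs with a higher first chain, the number of differing genes by the 2-fold rule, the median ratio between animals and the list counts stayed within 1.5 times or within their spread under the alternatives run. With the rule that asks only that the interval excludes 1, chosen after the data were seen, 6 genes differed in place of 0. The class shares moved by more than the spread between animals as follows, with the order of the 4 means unchanged in each. For fibrillar genes the share was 31.3% from expected counts and 32.5% from counts per kilobase, which was added after the data were seen. For basement membrane genes it was 48.4% in the second quantification, 47.1% from counts, 43.6% per kilobase and 54.0% with the multiplexins. Beaded filament genes held 11.3% in the second quantification and 11.8% from counts. The other genes held 9.79% from counts and 3.16% without the multiplexins. In replicate 2 of the second quantification the other genes (12.5%) were above the beaded filament genes (11.3%). From expected counts, which are not per length, the log2 ratio of Col1a1 to Col1a2 became 0.033 and that of Col6a3 to Col6a1 became 0.25. Of the 13 ratios, 8 moved by more than their spread in the second quantification and 8 per kilobase, with no change of direction. The share of the leading transcript moved by more than its spread in the second quantification for 10 of 19 genes, with Col4a1-201 at 48.2% and Col3a1-201 at 64.3%. Among listed genes that passed the 2-fold rule, Adamts3 fell below it with ERCC scaling (1.95) and in the second quantification (1.82), alternatives added after the data were seen. Scgb1a1 had too few counts in the second quantification to be tested. With 2 libraries an SD rests on 1 difference, so values that moved by more than it can still be close. Genes with few counts, such as the 5 with none in at least 1 library, cannot be told from 0 at this depth.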
